A study of Rattus with 6 samples.

Results

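The transcripts of 5 genes were followed: Nppa (listed as ENSRNOG00000008176), Nppb (ENSRNOG00000008141), Acta1 (ENSRNOG00000017786), Myh7 (ENSRNOG00000016983) and Myh6 (ENSRNOG00000025757). They were picked out by identifier among the 23092 genes counted in each library, with earlier results of these data known, and they comprise the classical fetal genes of the ventricle together with its adult myosin heavy chain. RNA came from isolated ventricular cardiomyocytes of wild-type male Wistar rats, adults aged 8 weeks. In the hypergravity group (3 libraries) the animals were centrifuged at 4 g over 14 days, for 8 h on each day, and the control group (3 libraries) had no hypergravity. The labels do not say whether a library holds 1 animal or several, so p-values measure the spread between libraries, which may in part be technical.

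In the fetal ventricle, cardiomyocytes express atrial natriuretic peptide (Nppa), B-type natriuretic peptide (Nppb), skeletal alpha-actin (Acta1) and the slow beta-myosin heavy chain (Myh7). After birth these genes are turned down in the rodent ventricle, while the fast alpha-myosin heavy chain (Myh6) becomes the main cardiac myosin motor. Partial return of the fetal pattern, with more Nppa, Nppb, Acta1 and Myh7 and less Myh6, is widely used as a sign of hemodynamic overload and hypertrophy of the adult heart.

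Library totals ran from 24440690 to 45497422 counts on genes. The 10 genes with the highest mean share, Myh6 among them, took 52.5 to 73.4% of the counts of a library. Normalised counts are therefore given as CPM, the count relative to a library size scaled by the trimmed mean of M values (TMM), which limits the weight of such genes. Alignments outside annotated exons made up 2.85 to 3.20% of a control library and 4.07 to 4.40% of a hypergravity library. The identifiers were not paired with names in the files or in the reference table, so markers of atrial, endothelial, fibroblast and blood cells and the other genes of the sarcomere and of natriuretic peptide signalling were not analysed here. The labelled cell type was thus checked only through Myh6, a chain characteristic of heart muscle, which took 0.554 to 2.69% of the gene counts in each library. Whether the cells came from the ventricle rather than the atria was not tested. In such bulk RNA, fewer cells of a type and less RNA per cell cannot be told apart.

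After hypergravity, Myh7 transcripts were lower in each of the 3 libraries than in any control library, by 2.80-fold in the fitted mean, whereas Myh6 and Acta1 averaged 1.44-fold higher with overlapping groups. Nppa and Nppb differed more between libraries of a group than between the groups. In the quasi-likelihood test of edgeR, adjusted by Benjamini-Hochberg over 11905 tested genes, 0 of the 5 genes passed an adjusted p of 0.05, where 0.0336% of the tested genes did (0 higher and 4 lower). At an unadjusted p under 0.05, 875 genes (7.35%) were higher and 740 (6.22%) lower, and 1 of the 5, Myh7, was among the latter. DESeq2 called 175 genes higher and 151 lower, and 1 of the 5, Myh7, was among its lower genes, which made up 1.27% of those tested. The groups did not overlap in normalised count for 1 of the 5 genes, against 21.8% of the tested genes (10.5% lower, as Myh7 was).

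**Figure D1:**
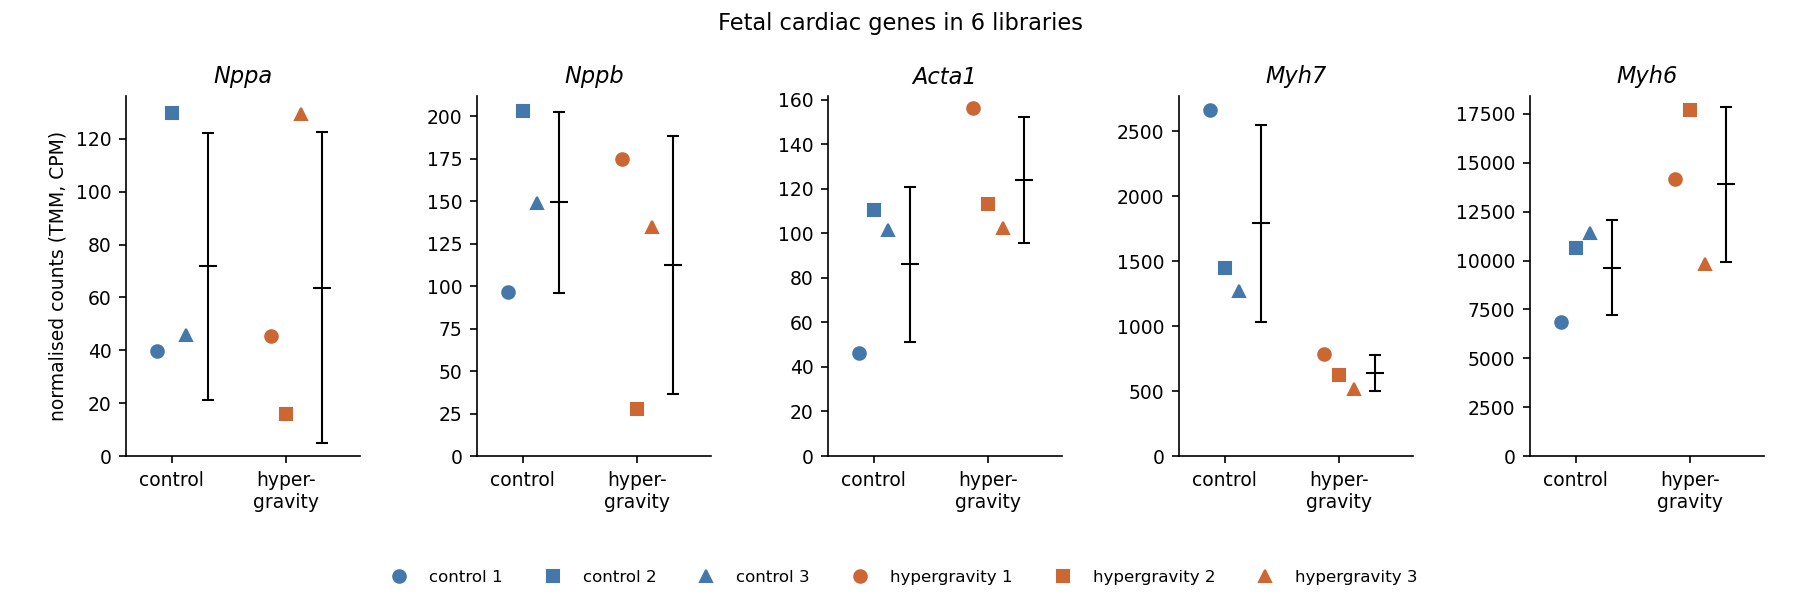
Normalised counts (CPM after TMM scaling, linear axes from 0) of the 5 genes in the 3 control (blue) and 3 hypergravity (orange) libraries, with the mean ± SD of each group in black. Myh7 is at 512 to 788 CPM after hypergravity and at 1267 to 2662 CPM in the control group, while the groups of the other 4 panels overlap.

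Among the myosin heavy chains, Myh7 encodes the slow beta chain, which splits ATP more slowly and holds force at lower energy cost. Its normalised count was 2662, 1443 and 1267 CPM in control libraries 1, 2 and 3, and 788, 621 and 512 CPM in hypergravity libraries 1, 2 and 3. The highest hypergravity library was thus below the lowest control library, and control library 1 stood above the other two of its group. The group means were 1791 ± 759 CPM (SD, n = 3) in the control group and 641 ± 139 CPM (SD, n = 3) after hypergravity. The log2 fold change was -1.48 (standard error, SE, 0.325, 95% interval -2.23 to -0.74), with an unadjusted p of 0.0017 and an adjusted p of 0.183 in edgeR. The difference was thus larger than the spread between replicates gene by gene, but did not pass after adjustment over all tested genes.

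The call for Myh7 differed between the tools. DESeq2 gave a log2 fold change of -1.48 and an adjusted p of 0.00017, while limma-voom gave -1.46 and 0.143. Across all 13 alternatives the log2 fold change of Myh7 ran from -1.68 to -1.07 and the adjusted p from 0.00017 to 0.542. It was smallest among the fits with a library left out, -1.08, without control library 1. In edgeR, 110 of the 11905 tested genes had a smaller p than Myh7. Of the 6768 tested genes with a mean of at least 5 CPM, 18 had a more negative log2 fold change.

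**Figure D2:**
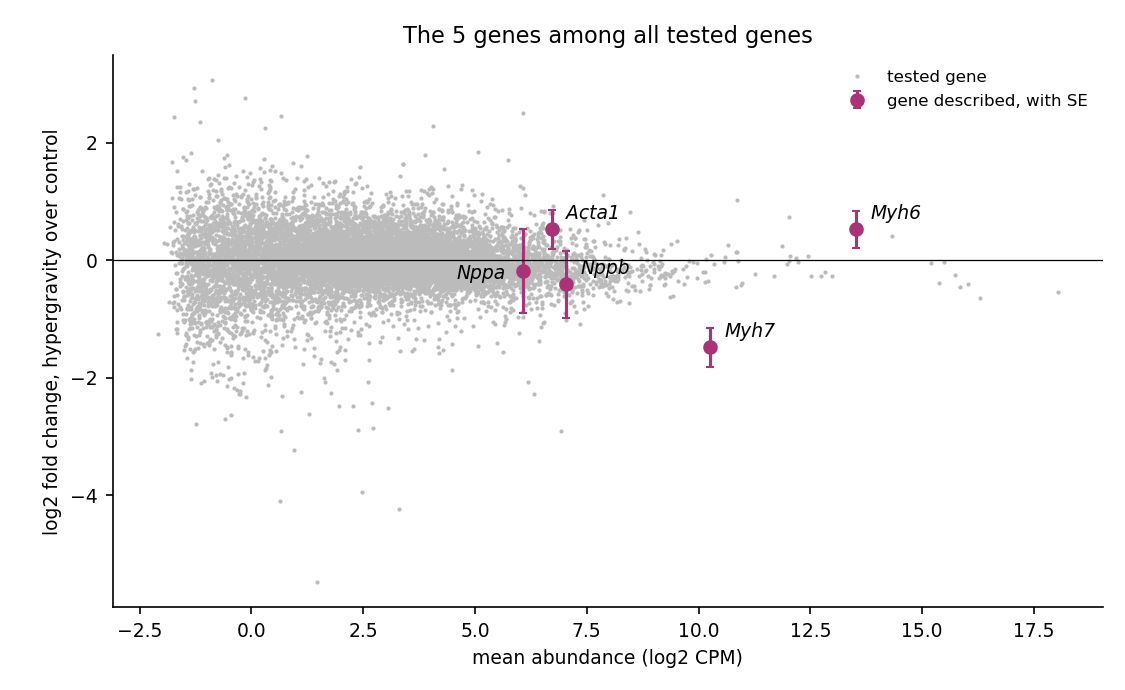
Fitted log2 fold change, hypergravity over control, against mean abundance (log2 CPM) for the 11905 tested genes (grey), with the 5 genes described marked in purple with their standard errors. Myh7 is at -1.48, while Acta1 and Myh6 are both at 0.53 and Nppa and Nppb at -0.18 and -0.41.

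Myh6 encodes the fast alpha chain. It stood at 6850, 10643 and 11424 CPM in control libraries 1, 2 and 3, and at 14172, 17720 and 9799 CPM in hypergravity libraries 1, 2 and 3. Hypergravity libraries 1 and 2 were above each control library, but hypergravity library 3 was below 2 of the 3. The means were 9639 ± 2447 CPM (SD, n = 3) and 13897 ± 3967 CPM (SD, n = 3) in the control and hypergravity groups, respectively. The log2 fold change of 0.53 (SE 0.313, 95% interval -0.19 to 1.25) had an adjusted p of 0.487 in edgeR. The interval leaves room for a 2.37-fold higher as well as for a slightly lower mean.

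The raw share of Myh6 varied more than its normalised count. It was 0.554, 0.823 and 1.32% of the gene counts in control libraries 1, 2 and 3, and 1.60, 2.69 and 0.789% in hypergravity libraries 1, 2 and 3. Hypergravity library 2, with the largest Myh6 share, had the smallest share in the 10 most abundant genes (52.5%), and control library 1, with the smallest Myh6 share, had 72.7% there. With scaling to the library size alone, under which the median over all genes moved from -0.02 to 0.32 on the log2 scale, Myh6 was at 0.92, or 0.60 above that median, and Myh7 at -1.07, or -1.39 relative to it. Neither passed in that fit (adjusted p 0.519 and 0.456 in edgeR).

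The ratio of Myh7 to Myh6 within a library needs no scaling between libraries and is given here for counts, without adjustment for transcript length. The genes are neighbours, with no other protein-coding gene between them in the RefSeq table of the GRCr8 assembly. Per 1000 Myh6 counts control libraries 1, 2 and 3 held 389, 136 and 111 Myh7 counts. The corresponding values in hypergravity libraries 1, 2 and 3 were 55.6, 35.1 and 52.2. The groups did not overlap: the lowest control ratio was 1.99 times the highest hypergravity ratio.

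As a share of the counts of both chains, which are not corrected for transcript length, Myh7 made up 28.0% (95% Wilson interval 27.8 to 28.2), 11.9% (11.8 to 12.1) and 9.99% (9.90 to 10.1) in control libraries 1, 2 and 3. It made up 5.27% (5.22 to 5.32), 3.39% (3.36 to 3.42) and 4.96% (4.87 to 5.06) in hypergravity libraries 1, 2 and 3. These intervals cover counting error only and are narrow against the distances between libraries. The mean share was 16.6 ± 9.88% (SD, n = 3) in the control group and 4.54 ± 1.01% (SD, n = 3) after hypergravity. Without control library 1 the control mean was 11.0%. The lowest single control share, 9.99%, was already above each hypergravity share.

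On the log2 scale the ratio of Myh7 to Myh6 averaged -2.47 ± 0.97 (SD, n = 3) in the control group and -4.42 ± 0.36 (SD, n = 3) after hypergravity. The difference of -1.95, a 3.86-fold lower ratio, had p = 0.1 in a two-sided exact permutation test, the lower limit of p with 3 libraries a group (Benjamini-Hochberg adjusted p = 0.2 over the 2 ratios tested). For 23.9% of the other tested genes the count ratio to Myh6 was likewise lower after hypergravity with no overlap of the groups. An absence of overlap therefore does not set Myh7 apart by itself.

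The size of the difference was examined by fitting all 11904 other genes with the Myh6 count in place of the library size, a fit chosen after the ratios had been seen. The log2 fold change of Myh7 was then -2.15 (SE 0.464, adjusted p = 0.0221 in edgeR), against a median of -0.54 over all genes. The Myh6 count of a library enters the value of every gene in this fit. The error of that count is thus shared by all genes but treated as independent, so the adjusted p may be too small. In this fit 0.218% of the genes passed in the lower direction, 26 genes with Myh7 among them. The call rested on single libraries: the adjusted p was 0.868 without control library 1, where the log2 fold change was -1.37, and 0.103 without hypergravity library 1, where it was -2.28. The number of genes called in either direction was as unstable, at 0 and 20 in these fits. With each of the other 4 left out, the adjusted p of Myh7 ran from 0.00051 to 0.0068, in fits that called 85 genes without control library 2, 101 without control library 3, 36 without hypergravity library 2 and 1471 without hypergravity library 3. Passing the test was therefore not particular to Myh7.

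**Figure D3:**
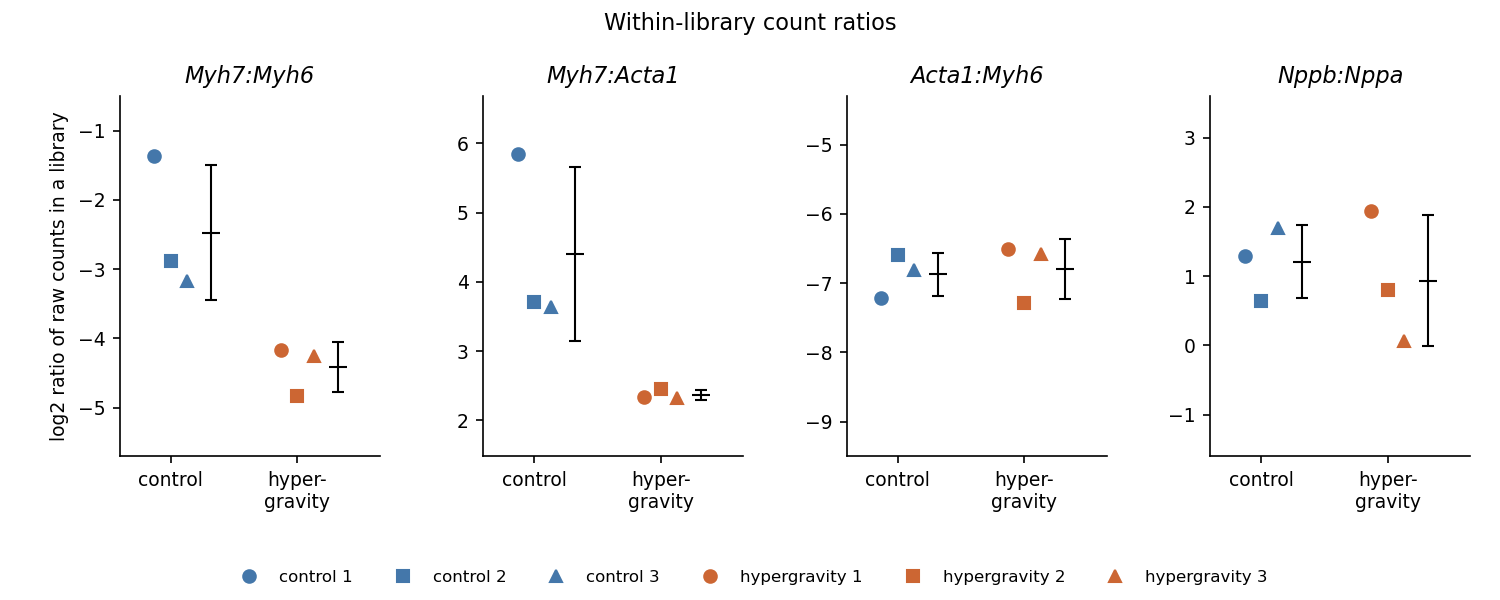
Log2 ratios of raw counts within each library for Myh7 to Myh6, Myh7 to Acta1, Acta1 to Myh6 and Nppb to Nppa, in control (blue) and hypergravity (orange) libraries, with mean ± SD in black and the same axis span in each panel. Both ratios with Myh7 on top lie lower in each hypergravity library than in any control library, while the ratio of Acta1 to Myh6 averages -6.87 and -6.79 in the control and hypergravity groups.

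The libraries stood in nearly the same order by the share of alignments outside exons as by the myosin ratio. That share was 2.85, 3.19 and 3.20% in control libraries 1, 2 and 3, and 4.13, 4.40 and 4.07% in hypergravity libraries 1, 2 and 3. Control library 1 had the lowest share and the highest ratio of the 6, and hypergravity library 2 had the highest share and the lowest ratio. The part of this share in the result was not tested. The chains are closely related in sequence, so reads that align to both genes may have been left out of both counts. Alignments to several places made up 1.69 to 2.24% in the control group and 1.93 to 2.58% after hypergravity, with overlapping groups, and their part in the ratio was not tested either.

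Acta1 encodes the skeletal form of alpha-actin, a thin filament protein that the adult rodent ventricle makes little of beside cardiac actin. It was at 46.2, 110 and 101 CPM in control libraries 1, 2 and 3, and at 156, 113 and 102 CPM in hypergravity libraries 1, 2 and 3. Control library 1 stood below the remaining 5, and the groups overlapped because hypergravity library 3 lay between control libraries 2 and 3. The means were 86.0 ± 34.8 CPM (SD, n = 3) in the control group and 124 ± 28.5 CPM (SD, n = 3) after hypergravity. The log2 fold change of 0.53 (SE 0.327, 95% interval -0.23 to 1.28) had an adjusted p of 0.506 in edgeR. Without control library 1 it was 0.22.

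Set against Myh6, Acta1 differed little between the groups. There were 6.75, 10.4 and 8.88 Acta1 counts per 1000 Myh6 counts in control libraries 1, 2 and 3, and 11.0, 6.39 and 10.4 in hypergravity libraries 1, 2 and 3. The lowest and the highest of these 6 values were both found after hypergravity. The mean log2 ratio was -6.87 ± 0.31 (SD, n = 3) and -6.79 ± 0.43 (SD, n = 3), a difference of 0.08.

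Set against Acta1, Myh7 was lower in each hypergravity library than in any control library. The count ratio of Myh7 to Acta1 was 57.6, 13.1 and 12.5 in control libraries 1, 2 and 3. It was 5.05, 5.48 and 5.00 in hypergravity libraries 1, 2 and 3. Control library 1 stood apart: the SD of the log2 ratio was 1.25 in the control group with it and 0.047 without it, against 0.07 after hypergravity (n = 3). The value of 0.047 comes from control libraries 2 and 3 alone and is a poor measure of spread. The ratios to Acta1 of 26.0% of the other tested genes were lower without overlap in the same way.

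Nppa encodes the precursor of atrial natriuretic peptide, a hormone that promotes salt loss and relaxes vessels, and which in the adult is made mostly in the atria. Its normalised count was 39.6, 130 and 45.7 CPM in control libraries 1, 2 and 3, and 45.4, 16.1 and 129 CPM in hypergravity libraries 1, 2 and 3. One library of each group, control 2 and hypergravity 3, was near 130 CPM, and the other 4 were at 45.7 CPM or below. The means were 71.8 ± 50.5 CPM (SD, n = 3) in the control group and 63.6 ± 58.9 CPM (SD, n = 3) after hypergravity. The log2 fold change was -0.18 (SE 0.716, adjusted p = 0.934 in edgeR). Its 95% interval, -1.82 to 1.47, reaches a 2.76-fold higher mean after hypergravity, so differences up to that size are not excluded with this spread.

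Nppb encodes the precursor of B-type natriuretic peptide, the form that ventricular muscle releases on stretch. It stood at 96.6, 203 and 149 CPM in control libraries 1, 2 and 3, and at 175, 28.0 and 135 CPM in hypergravity libraries 1, 2 and 3. Hypergravity library 2 was far below the remaining 5, and the other two hypergravity libraries lay within the range of the control group. The means were 150 ± 53.3 CPM (SD, n = 3) and 113 ± 75.9 CPM (SD, n = 3). The log2 fold change of -0.41 (SE 0.574, 95% interval -1.73 to 0.91) had an adjusted p of 0.786 in edgeR.

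The direction for both peptides turned on single libraries. Nppa had a log2 fold change of 0.58 without control library 2, 0.04 without hypergravity library 1 and 0.31 without hypergravity library 2, while it was -1.22 without hypergravity library 3. Nppb was at 0.06 without hypergravity library 2 and at -0.86 without hypergravity library 1. None of these fits gave an adjusted p under 0.365 for Nppa or 0.562 for Nppb in edgeR.

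**Figure D4:**
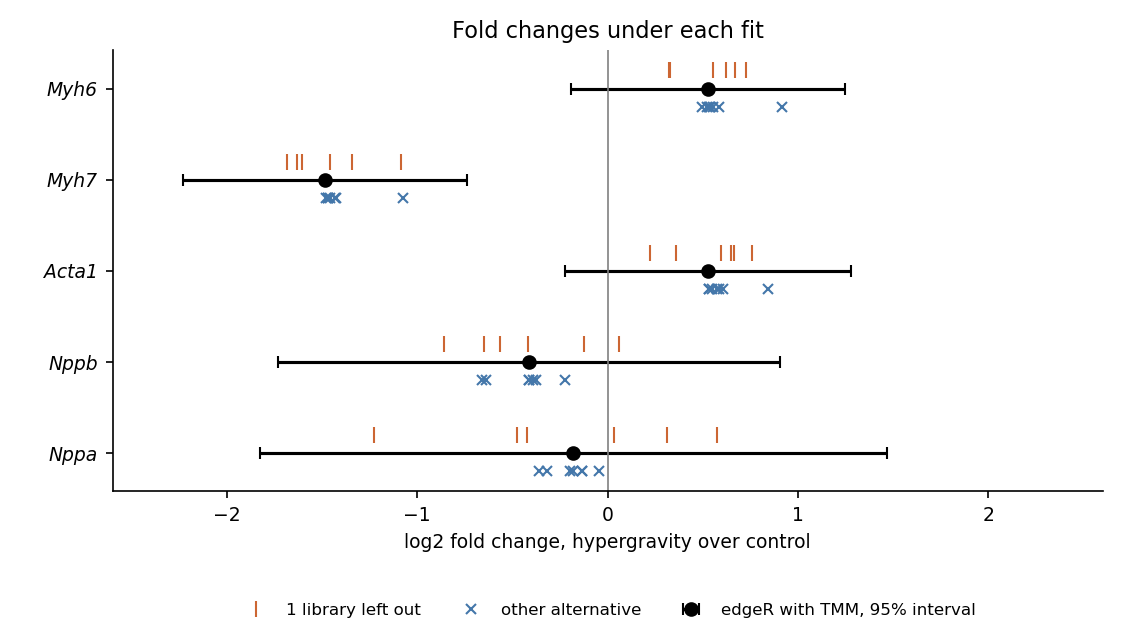
Log2 fold change, hypergravity over control, of each gene in the edgeR fit with TMM (black points with 95% intervals), with each of the 6 libraries left out (orange ticks) and under the 7 other alternatives (blue crosses). The values for Myh7 run from -1.68 to -1.07 and those for Myh6 and Acta1 stay above 0, whereas those for Nppa and Nppb lie on both sides of 0.

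The genes of the natriuretic peptides are neighbours, with no gene between them in the RefSeq table of GRCr8. Within a library there were 2.44, 1.56 and 3.25 Nppb counts per Nppa count in control libraries 1, 2 and 3, and 3.85, 1.74 and 1.04 in hypergravity libraries 1, 2 and 3. The highest and the lowest ratio were both found after hypergravity. The mean log2 ratio was 1.21 ± 0.53 (SD, n = 3) in the control group and 0.94 ± 0.95 (SD, n = 3) after hypergravity, a difference of -0.28 (two-sided exact permutation test, p = 0.8, and 0.8 after adjustment over the 2 ratios).

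Between libraries of a group, the natriuretic peptide genes were more variable than most tested genes of at least moderate abundance. The within-group SD of the log2 normalised count, pooled over both groups, was 1.25 for Nppa and 1.08 for Nppb, larger than for 99.0% and 98.5% of the 6768 tested genes with a mean of at least 5 CPM, whose median was 0.224. The value for Nppb rested on hypergravity library 2: without it the SD was 0.46, larger than for 93.8% of these genes, while that of Nppa was 0.98 or more with any library left out. For Acta1, Myh7 and Myh6 it was 0.54, 0.46 and 0.42, larger than for 95.5%, 93.2% and 90.7% of these genes. The values for Acta1 and Myh7 rested on control library 1: without it they were 0.26 and 0.27, larger than for 63.3% and 63.9% of these genes. Between the lowest and the highest library of a group, Nppa differed 3.28-fold in the control group and 8.06-fold after hypergravity. For Nppb these ranges were 2.10-fold and 6.25-fold, and for Myh7 2.10-fold and 1.54-fold. Counting error was small beside this spread, since the lowest of all 30 counts, 805 for Nppa in control library 1, has an exact 95% Poisson interval of 750 to 863.

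Of the 10 ratios that can be formed between the 5 genes, 3 did not overlap between the groups: Myh7 to Myh6, Myh7 to Acta1 and Acta1 to Nppb. The last was 0.478, 0.543 and 0.682 in control libraries 1, 2 and 3 and 0.894, 4.05 and 0.758 in hypergravity libraries 1, 2 and 3, and 2.82% of the other tested genes had a ratio to Nppb that was higher without overlap. Myh7 to Nppa and Myh7 to Nppb overlapped between the groups. The 10 ratios share genes, and those other than Myh7 to Myh6 and Nppb to Nppa were looked at after the values were known and are given without a test.

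Across the 6 libraries, which include both groups and share the scaling, the log2 normalised counts of Nppa and Nppb had a Pearson correlation of 0.80 and those of Myh6 and Acta1 of 0.81. Myh7 stood at -0.68 with Myh6 and -0.72 with Acta1. With 6 points such values are common: among the 6767 other genes with a mean of at least 5 CPM, 575 were more alike to Nppa than Nppb was, and 429 more alike to Myh6 than Acta1 was. Between 85 genes (Acta1) and 193 genes (Myh7) had a correlation over 0.9 with a given one of the 5. The most alike were ENSRNOG00000014618 for Nppa (0.999) and ENSRNOG00000061359 for Myh7 (0.992), given by identifier because the names were not at hand.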

How the data were processed

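Quality control, trimming, alignment and counting were done by the authors, whose processing notes name FastQC, Trimmomatic, HISAT2, HTSeq and the genome build mRatBN7.2. The strand setting of the counting is not given in the sources used here, so reads of overlapping genes may not have been told apart. The deposited values are raw counts of reads per gene, without normalization. The 5 counting categories that are no genes (8.55 to 9.92% of the listed alignments) were left out of library sizes and tests. The 5 genes and all lists were chosen with earlier results of these data known. The reference table matched 0 of the 23092 identifiers, so the planned lists of marker and pathway genes were not analysed, and gene symbols are those that came with the 5 identifiers. Transcript lengths were not at hand, so ratios and shares of counts of different genes are not corrected for length and were compared only between libraries. No sequence is shown, since none was at hand for these genes.

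Hypergravity was compared with control in all 6 libraries with edgeR 4.0.16 (R 4.3.3), using filterByExpr (11905 genes), TMM, and quasi-likelihood F tests, with p-values adjusted by Benjamini-Hochberg and called under 0.05. The SE of a log2 fold change is its size over the root of F. Log2 normalised counts for spreads and correlations used a prior count of 2. Ratios were tested by two-sided exact permutation with scipy 1.17.1. Alternatives were DESeq2 1.42.0, limma-voom (limma 3.58.1), library size only, TMM without the 10 most abundant genes, no filter, a filter on the mean (1 CPM), the replicate number as a block, and leaving out single libraries. Leaving out libraries for the spreads, the Myh7 share and the ratio of Myh7 to Acta1 was added after seeing the data. The procedure was tested on simulated counts. These had the same spread setting for all genes and, apart from the changed genes, the same gene shares in each library. The real libraries differ from that, so the test does not cover their uneven composition. No library was a copy of another, since chi-square tests found more than sampling noise between all pairs. The rule for named genes took the 5 genes, the lists above and, for each of the 5, the 3 most correlated genes, of which 2 are printed.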

Additional observations from a re-analysis of the deposited data

How the results depend on the processing

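The count of 0 genes higher and 4 lower with edgeR was 175 and 151 with DESeq2, which gave no adjusted p for 1164 genes, and 4 and 11 without a filter. It was 0 and 1 with library size only, and 0 and 0 with the replicate block (582 higher and 397 lower at an unadjusted p under 0.05, edgeR). Leaving out each library gave 0 higher and 0 to 1 lower, with fewer samples in each fit. The cause of the other differences was not tested. The correlations of same-numbered libraries' deviations were -0.468, -0.107 and 0.209, which differ in sign. The labels give only a replicate number, and these values cannot show whether same-numbered libraries shared a batch. With the block the log2 fold change of Myh7 was -1.43 (adjusted p = 0.394, edgeR). Paired by number, the log2 ratios of Myh7 to Myh6 and of Nppb to Nppa again differed by -1.95 and -0.28 (exact sign-flip permutation test, p = 0.25 and 1.0, with 0.25 the smallest possible).

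Myh6 and Acta1 kept their direction under all 13 alternatives, at 0.32 to 0.92 and 0.22 to 0.85, and no alternative called them. Nppa reversed without control library 2 (0.58), hypergravity library 1 (0.04) and hypergravity library 2 (0.31), within a range of -1.22 to 0.58 with each library left out, and Nppb without hypergravity library 2 (0.062), within -0.86 to 0.062. With each library left out, the log2 ratio of Myh7 to Myh6 differed by -2.30 to -1.39 and that of Nppb to Nppa by -0.78 to 0.16, above 0 only without hypergravity library 3. With the Myh6 count as library size, an alternative chosen after seeing the data, Myh7 was at -2.15 and passed the threshold, in a fit whose p may be too small. With the Nppa count as library size, Nppb was at -0.13. The lists of marker and pathway genes were not run. The counts of these 5 genes were 805 or more in every library, and the part of depth was not tested.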
